A study of Mus musculus with 6 samples.

Results

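The transcripts described here are the 12 predicted or unnamed mouse genes whose levels separated *Trp53*-deleted from *Trp53*-intact colorectal tumors without overlap. They are the rows with a Gm or Rik name in which the lowest tumor of one genotype had at least 1 TPM (the deposited unit, a level scaled for transcript length and for the library) and at least 2 times the level of the highest tumor of the other. Of 27878 rows with such a name, 24934 Gm and 2944 Rik, 1053 reached 1 TPM in every tumor of a genotype, and the 12 are 1.14% of these (0.76% higher and 0.38% lower in *VP* tumors). Among the other rows that reached the same level, 56 of 13447 (0.416%) passed the same rule. Over all 14500 rows that reached it, the share was 0.469%. The rule leaves out *Gm4951* by name, so these row counts do not include it. The 12, called members below, were chosen by the measured TPM of these same tumors, so their separation is a description and carries no test. The labels give the strain of all mice as C57BL/6J. Male mice were 8 weeks old when they received the carcinogen azoxymethane (AOM, 10 mg/kg), followed by 3 cycles of 2.5% dextran sulfate sodium (DSS), which injures the colon lining, for 7 days each, with tumors taken on day 98. The *Trp53fl/fl* group (3 tumors) carried loxP-flanked *Trp53* alleles without Cre, which leaves the gene intact, and the *VP* group (3 tumors) carried the same alleles with *Pvillin-Cre*, which deletes the gene in intestinal epithelium only, so that the other cells of a *VP* tumor keep it. Each tumor is named by its genotype and replicate number, and lists of values run in replicate order. All 12 transcripts passed the filter on low values used below, 11 of them through the genotype in which they were higher, while *Gm43980* was above 1 TPM in all 6 tumors.

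A Gm name marks a predicted gene model and a Rik name a gene known from a RIKEN cDNA clone, and neither has been given a function in its name. Many are processed pseudogenes, which are copies of a messenger RNA that was reverse transcribed and inserted elsewhere in the genome, so they lack introns and stay close in sequence to the gene they came from. Others are long intergenic noncoding RNAs (lincRNAs), antisense transcripts, or pieces of repeats and endogenous retroviruses. *Trp53* encodes p53, a transcription factor that acts on stress response genes and on some noncoding RNAs. In short-read sequencing, a read from a pseudogene can match its parent gene as well, and the program that quantifies must place it.

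GENCODE M21 (GRCm38) held 11 of the 12 by gene ID, on 9 chromosomes. They comprised 4 processed pseudogenes, 4 lincRNAs, 1 antisense gene, 1 unprocessed pseudogene and 1 TEC gene, a provisional class for loci whose status is not settled. None was protein coding, against 27.2% of the 1037 other expressed Gm and Rik genes in that annotation. Pseudogenes made up 45.5% of the 11 and 21.1% of the others, and genes with a single exon 72.7% and 31.9%. The median longest transcript was 498 bases against 1454. The sequences of 5 members beside the coding genes they resemble are shown to let the closeness be seen. Each pair is a stretch of 120 aligned bases, taken from the GENCODE M21 transcripts and lying in the coding part of the gene, with the bases that differ in capitals. Among the gap-free stretches there, the one with the most differing bases is shown.
Gm43712: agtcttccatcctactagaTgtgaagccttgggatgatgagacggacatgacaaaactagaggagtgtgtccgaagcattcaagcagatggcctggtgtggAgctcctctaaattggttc
Eef1b2: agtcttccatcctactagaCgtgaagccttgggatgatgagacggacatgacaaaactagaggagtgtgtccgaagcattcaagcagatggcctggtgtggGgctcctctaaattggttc
Gm5138: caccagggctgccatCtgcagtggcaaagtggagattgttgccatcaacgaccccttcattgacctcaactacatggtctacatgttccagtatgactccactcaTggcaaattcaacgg
Gapdh: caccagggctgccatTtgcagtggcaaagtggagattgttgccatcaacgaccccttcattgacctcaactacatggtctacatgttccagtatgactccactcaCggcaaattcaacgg
Gm11425: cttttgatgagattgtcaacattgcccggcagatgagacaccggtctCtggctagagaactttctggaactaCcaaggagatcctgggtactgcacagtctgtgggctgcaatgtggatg
Rpl12: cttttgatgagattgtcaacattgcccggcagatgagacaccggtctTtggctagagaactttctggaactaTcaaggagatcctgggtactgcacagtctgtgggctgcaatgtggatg
Gm29787: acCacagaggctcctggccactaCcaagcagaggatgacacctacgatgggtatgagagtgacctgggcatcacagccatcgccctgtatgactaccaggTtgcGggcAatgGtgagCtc
Cttn: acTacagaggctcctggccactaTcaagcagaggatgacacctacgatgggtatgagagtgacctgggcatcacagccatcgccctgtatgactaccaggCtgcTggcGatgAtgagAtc
Gm48228: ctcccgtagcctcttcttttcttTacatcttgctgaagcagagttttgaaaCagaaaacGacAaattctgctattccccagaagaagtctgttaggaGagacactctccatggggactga
Selenok: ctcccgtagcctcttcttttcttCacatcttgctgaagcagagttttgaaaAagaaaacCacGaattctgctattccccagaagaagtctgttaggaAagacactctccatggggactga
The *Selenok* line is the reverse complement, since *Gm48228* is read from the opposite strand. The stretches differed at 2 positions for *Gm43712*, *Gm5138* and *Gm11425*, at 5 for *Gm48228* and at 7 for *Gm29787*. *Gm45665* is shown whole, because it is made of a short repeat, with the bases outside runs of 3 or more CCT units in capitals.
Gm45665: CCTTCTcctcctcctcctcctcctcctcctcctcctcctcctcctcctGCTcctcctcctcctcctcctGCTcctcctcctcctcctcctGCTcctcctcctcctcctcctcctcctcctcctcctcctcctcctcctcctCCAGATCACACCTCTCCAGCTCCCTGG
These runs took up 126 of its 168 bases, or 75%.

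Over whole alignments, *Gm43712* matched *Eef1b2*, which encodes an elongation factor subunit, at 98.9% of 278 bases with 3 mismatches and an identical run of up to 122 bases. *Gm5138* matched *Gapdh*, the glycolytic enzyme gene, at 99.7% of 1002 bases, with 3 mismatches and a run of 437. *Gm11425* matched *Rpl12*, a ribosomal protein gene, at 99.2% of 498 bases, with 4 mismatches and a run of 161. *Gm48228* matched *Selenok*, a selenoprotein gene, at 98.3% of 404 bases on the opposite strand, with 7 mismatches and a run of 217. *Gm29787* matched *Cttn*, which encodes the actin-binding protein cortactin, at 96.2% of 842 bases, with 26 mismatches and a run of 103. The kit is not described as keeping strand, so *Gm48228* and *Selenok* reads cannot be told apart by direction.

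To put the sharing on 1 scale for all members, each transcript was split into its distinct words of 31 bases, and the share of words found in the transcripts of any other gene was counted. The median share was 49.1% for the 11 members with a sequence, 22.7% for the 1037 other expressed Gm and Rik genes and 1.62% for 13115 other expressed genes. At least 25% of words were shared in 8 of the 11, against 48.4% of the other Gm and Rik genes and 11.1% of the rest. *Gm5138* and *Gm42428* shared 100% of their words, *Gm11425* 98.3% and *Gm48228* 93.9%. *Gm31432* stood at the other end with 0%, and *Gm43980* and *Gm29737* had 9.92% and 16.3%. With words of 75 bases, a length chosen after the data were seen, the medians were 25.3%, 11.9% and 0%. These are descriptions of the sequences, and the shares do not use the measured levels, although every set compared was chosen by level. Words were matched on both strands, and genes at the same locus were counted. Words of both lengths are shorter than the reads the paper describes, so a shared word does not mean that a whole read is shared. *Gm48228* shared 58.6% of its words with the overlapping *Selenok-ps8*, and *A530040E14Rik* 11.1% with the overlapping *C130026I21Rik*.

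**Figure D1:**
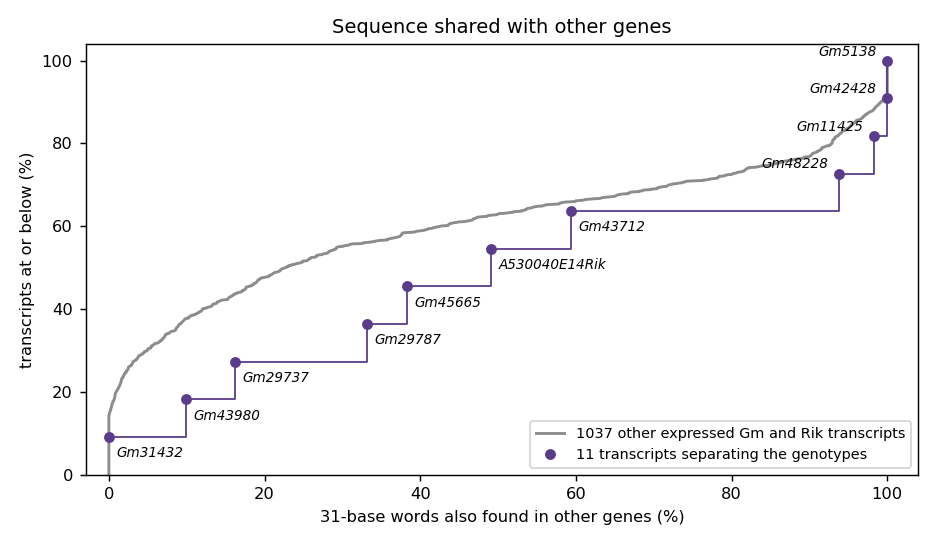
Cumulative plot of the share of 31-base words found in other genes (x axis, percent) against the percent of transcripts at or below that share (y axis). Purple points are the 11 transcripts with a sequence and the grey line is 1037 other expressed Gm and Rik genes. The points lie below the line over most of its range, with medians of 49.1% and 22.7%.

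*Trp53* itself was at 124.94, 99.30 and 147.45 TPM in *Trp53fl/fl* tumors and at 38.45, 32.79 and 27.83 TPM in *VP* tumors (log2 difference -1.87, SE 0.18, limma adjusted p = 0.0207), which follows the labels, although the call is lost without some tumors. The depth is unknown, since TPM keep no read count. Of 15117 genes tested with limma on log2(TPM + 1), 25 (0.165%) had an adjusted p under 0.05, with 12 (0.0794%) raised and 13 (0.086%) lowered in *VP*. Before adjustment, 1892 (12.5%) were under 0.05. Of 7462 genes with 20 TPM or more in some tumor, 94 were listed at 0 in another tumor, and 49 of those carried a Gm or Rik name. The share of such names among the 7462 was not counted. A check of 20 genes picked as widely expressed found none at 0 (lowest value 16.98 TPM), which their choice made likely. A 0 for one of the 12 is given as listed at 0, and whether it is an absence or a failed estimate was not tested.

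Among the 8 transcripts higher in *VP* tumors, 2 were listed at 0 in all *Trp53fl/fl* tumors. *Gm29787* (ENSMUSG00000113521, chr13:51205263-51206111, minus strand), the *Cttn*-like processed pseudogene of 849 bases, was at 4.74, 6.21 and 3.10 TPM in *VP* tumors. *Gm43712* (ENSMUSG00000104649, chr3:90126767-90127057, plus strand), the *Eef1b2*-like unprocessed pseudogene of 291 bases, was at 1.45, 2.89 and 1.75 TPM in *VP* tumors. Both were highest in *VP* replicate 2, and the groups did not overlap. No fold is given against values listed at 0. *Gm29787* lies 52.7 kb from *Spin1* and overlaps no other gene, while *Gm43712* lies in an intron of *Nup210l*, on its strand.

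*Cttn*, to which *Gm29787* is closest, went the other way in level, at 193.91, 181.91 and 182.44 TPM in *Trp53fl/fl* tumors and 152.13, 143.46 and 170.82 TPM in *VP* tumors. The genotypes did not overlap, but the log2 difference of -0.26 did not pass (limma adjusted p = 0.382). *Gm29787* reached 1.81% to 4.33% of the *Cttn* level in *VP* tumors. *Eef1b2* was at 566.09, 533.68 and 603.05 TPM in *Trp53fl/fl* tumors and 531.12, 532.89 and 596.96 TPM in *VP* tumors (log2 difference -0.04, limma adjusted p = 0.901), and its ranges overlapped. *Gm43712* was at 0.273% to 0.542% of it in *VP* tumors. *Nup210l*, the host of *Gm43712*, varied within both genotypes, at 9.12, 4.33 and 0.26 TPM against 0.15, 0.33 and 13.74 TPM.

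*Gm5138* (ENSMUSG00000079501, chr6:83874379-83875380, minus strand), the *Gapdh*-like processed pseudogene, was at 0.89, 0.83 and 0 TPM in *Trp53fl/fl* tumors and 4, 3.22 and 3.32 TPM in *VP* tumors. Its lowest *VP* tumor was 3.62 times its highest *Trp53fl/fl* tumor. *Gapdh* was at 2902.24, 2552.52 and 3505.51 TPM against 3536.14, 3373.42 and 3630.18 TPM (log2 difference 0.25, limma adjusted p = 0.521), with overlapping ranges. The pseudogene stood at 0.0915% to 0.113% of *Gapdh* in *VP* tumors and at no more than 0.0325% in *Trp53fl/fl* tumors. Another row, *Gm2574*, has the identical sequence over all 1002 bases, so reads cannot distinguish it from *Gm5138*. *Gm2574* was at 1.93, 1.02 and 3.13 TPM in *Trp53fl/fl* tumors and 1.08, 3.70 and 0 TPM in *VP* tumors, and did not separate them. Summed, the pair came to 2.82, 1.85 and 3.13 TPM against 5.08, 6.92 and 3.32 TPM, which leaves the lowest *VP* tumor 1.06 times the highest *Trp53fl/fl* tumor. With *Gapdh-ps15* and *Gapdh-ps16* added, the sums were 3.65, 2.85 and 4.71 TPM against 5.98, 7.91 and 4.45 TPM, and the genotypes overlapped. The rows summed were chosen after their values were seen. *Gm5138* lies in an intron of *Zfp638* on the opposite strand (13.35, 31.29 and 13.74 TPM against 12.81, 11.07 and 9.98 TPM, log2 difference -0.63, limma adjusted p = 0.446).

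*Gm48228* (ENSMUSG00000114036, chr13:62006640-62126102, minus strand), a lincRNA of 2 exons whose longest transcript has 404 bases, was low in all tumors, at 0.41, 0.24 and 0.34 TPM against 1.36, 1.04 and 1.55 TPM. Its means were 0.33 ± 0.0854 TPM and 1.32 ± 0.258 TPM (SD, n = 3 each), and its lowest *VP* value was just above the 1 TPM limit. *Selenok* was at 95.11, 108.01 and 89.82 TPM against 85.29, 94.40 and 88.84 TPM (log2 difference -0.12, limma adjusted p = 0.650). The lincRNA overlaps the *Selenok* pseudogenes *Selenok-ps8* and *Selenok-ps5* exon to exon on the other strand, and both were listed at 0 in the 6 tumors.

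**Figure D2:**
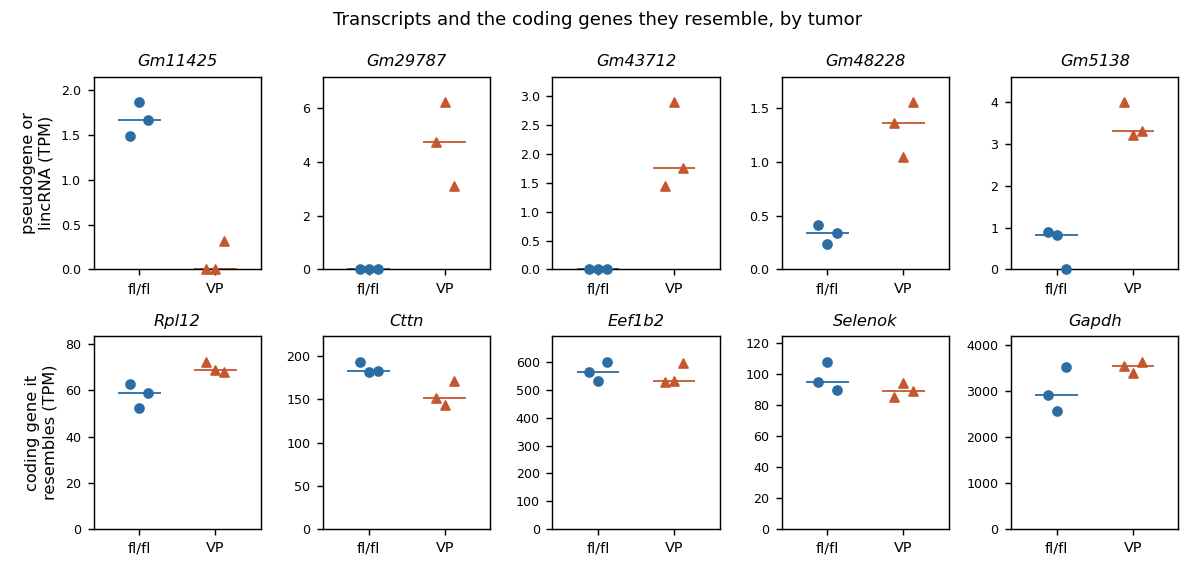
TPM per tumor (y axes, starting at 0, each panel with its own scale) of 5 members (top) and the coding gene each resembles (bottom), with *Trp53fl/fl* tumors as blue circles, *VP* tumors as orange triangles and the median as a line. The genotypes are apart in the top panels, while *Eef1b2*, *Selenok* and *Gapdh* overlap, and *Rpl12* and *Cttn* differ in directions opposite to *Gm11425* and *Gm29787* without passing adjustment. *Gm10275*, an *Rpl12* copy that is not drawn, was far above the *Rpl12* row in every tumor. It was at 2141.84 to 2484.36 TPM in *Trp53fl/fl* tumors and 2393.58 to 2622.84 TPM in *VP* tumors, which overlap.

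The most abundant member was *Gm42428* (ENSMUSG00000105353, chr5:44136620-44136921, plus strand), a single-exon lincRNA of 302 bases. It was at 12.99, 19.18 and 0 TPM in *Trp53fl/fl* tumors and 72.63, 52.64 and 57.71 TPM in *VP* tumors, so *Trp53fl/fl* replicate 3 was listed at 0 while the others held 10 TPM or more. The lowest *VP* tumor was 2.74 times the highest *Trp53fl/fl* tumor. Its sequence matched *Gm43305*, on chromosome 14, at 99.0% of its 302 bases, and *Gm48275*, on chromosome 10, shared 257 of its words. *Gm43305* ran from 34.04 to 233.21 TPM in *Trp53fl/fl* tumors and from 38.77 to 685.81 TPM in *VP* tumors (log2 difference 1.47, limma adjusted p = 0.599). *Gm48275* was at 13.93, 14.25 and 18.45 TPM against 41.57, 0 and 15.50 TPM (limma adjusted p = 0.777). Summed over the 3 rows the levels were 60.96, 266.64 and 54.34 TPM against 152.97, 287.37 and 759.02 TPM, which overlap. The nearest tested gene, *Gm42429* at 1.67 kb, was at 61.24, 25.91 and 54.68 TPM against 29.83, 37.65 and 18.28 TPM (log2 difference -0.67, limma adjusted p = 0.483). None of the 9 tested genes within 500 kb had an unadjusted limma p under 0.05.

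*A530040E14Rik* (ENSMUSG00000072109, chr1:85105946-85114035, plus strand) was the single member with a Rik name, an antisense gene of 6 transcripts with up to 6 exons and a longest transcript of 2017 bases. It was at 0.60, 1.36 and 1.77 TPM in *Trp53fl/fl* tumors (1.24 ± 0.594, SD, n = 3) and at 16.33, 3.75 and 5.03 TPM in *VP* tumors (8.37 ± 6.92, SD, n = 3). *VP* replicate 1 was 4.35 times the lowest *VP* tumor, so the mean rests on it. *Gm7592* (ENSMUSG00000118607), whose ID has no entry in GENCODE M21, had the same order within *VP* tumors, at 0.17, 0.46 and 0.29 TPM against 4.97, 1.01 and 1.34 TPM. *A530040E14Rik* lies over *C130026I21Rik* on the other strand, exon to exon, so reads without strand cannot be assigned to one of them. *C130026I21Rik* was at 1.80, 4.68 and 3.13 TPM against 10.41, 5.80 and 3.46 TPM (log2 difference 0.80, limma adjusted p = 0.441), also highest in *VP* replicate 1, with overlapping ranges. *Gm10552*, which matches 372 of its bases at 100%, was at 0.50, 0 and 0 TPM against 3.57, 0.39 and 0 TPM. Summing *A530040E14Rik* and *Gm10552* gave 1.10, 1.36 and 1.77 TPM against 19.90, 4.14 and 5.03 TPM, a gap of 2.34 times. The locus borders a cluster of Sp100-family genes, which encode nuclear body proteins responsive to interferon. *Sp110*, 463 kb away, was at 9.67, 9.12 and 11.27 TPM against 16.79, 18.80 and 13.49 TPM (log2 difference 0.65, SE 0.16, limma adjusted p = 0.269). *Sp140*, 486 kb away, had a log2 difference of 0.71 (limma adjusted p = 0.317). *Trip12*, 265 kb away on the other side, went the other way, at 70.80, 88.10 and 58.70 TPM against 53.02, 56.56 and 53.03 TPM (log2 difference -0.39, limma adjusted p = 0.376). Of 5 tested genes within 500 kb, these 3 had an unadjusted limma p under 0.05, against 12.5% of all genes tested, and 0 passed adjustment.

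*Gm29737* (ENSMUSG00000116705, chr12:19408348-19408740, plus strand), a lincRNA of 393 bases, was at 0.54, 0 and 0 TPM in *Trp53fl/fl* tumors and 1.99, 1.49 and 1.76 TPM in *VP* tumors, a gap of 2.76 times. It lies in an intron of *Gm5784*, on its strand, and RefSeq gives *Gm29737* as another name of *Gm5784*. *Gm5784* was at 1.43, 2.03 and 1.39 TPM against 2.20, 1.59 and 1.82 TPM (log2 difference 0.14, limma adjusted p = 0.786). Its ranges overlapped. *Zfp125*, a pseudogene row that aligns to *Gm29737* at 86.3% identity, was at 10.15, 10.06 and 7.03 TPM against 6.23, 3.74 and 4.23 TPM, lower where *Gm29737* was higher (log2 difference -0.82, limma adjusted p = 0.286). The closest coding match of *Gm29737*, *5730507C01Rik* at 93.1% of 304 bases, was below the filter. It was at 2.11, 0.92 and 0.10 TPM against 1.41, 0.81 and 0.91 TPM, which overlap.

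**Figure D3:**
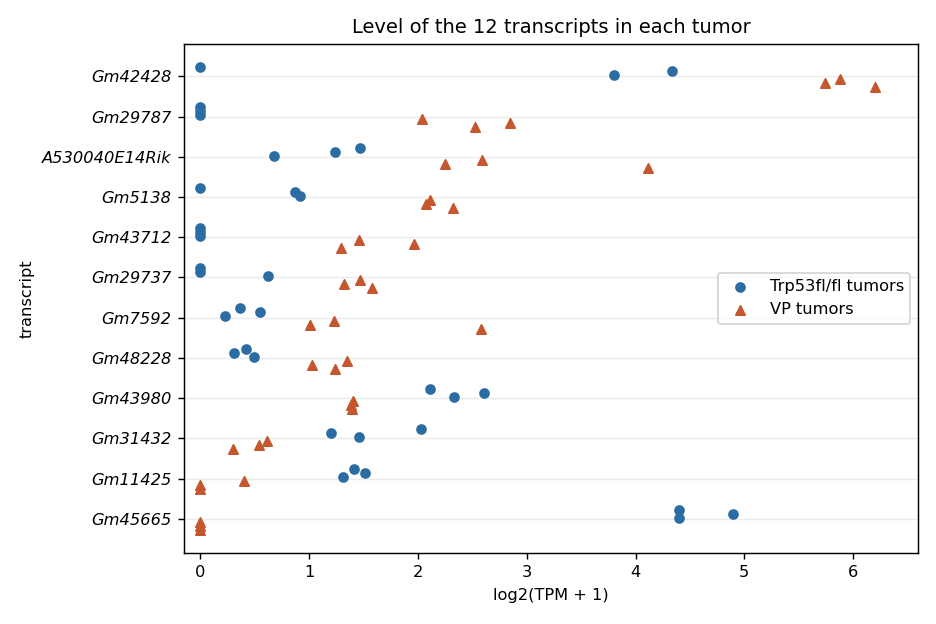
Level of each of the 12 transcripts (y axis) in each of the 6 tumors as log2(TPM + 1) (x axis), with *Trp53fl/fl* tumors as blue circles and *VP* tumors as orange triangles, ordered by the difference of means. The 8 upper rows are higher in *VP* tumors and the 4 lower rows are higher in *Trp53fl/fl* tumors, and points at 0 are tumors in which the transcript was listed at 0.

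Of the 4 transcripts lower in *VP* tumors, *Gm45665* (ENSMUSG00000110189, chr8:91152207-91152374, plus strand) had the widest difference. This processed pseudogene was at 20.15, 28.75 and 20.04 TPM in *Trp53fl/fl* tumors and listed at 0 in all *VP* tumors. As the printed sequence shows, it consists mostly of CCT units. Its words of 31 bases number 73, of which 38.4% occur in other genes, and no word of 75 bases does. Its closest coding match was *Mlph*, at 93.5% of 139 bases, which was at 27.10, 31.95 and 31.39 TPM against 37.66, 35.98 and 35.95 TPM (log2 difference 0.27, limma adjusted p = 0.384). *Gm45665* lies in an intron of *Aktip* on the opposite strand. *Aktip*, which encodes an adaptor of vesicle transport, was at 39.12, 46.97 and 42.49 TPM against 29.23, 32.40 and 36.76 TPM (log2 difference -0.38, SE 0.13, limma adjusted p = 0.341), lower in *VP* tumors like the pseudogene, without overlap and without passing adjustment. The neighbour *Rpgrip1l*, a ciliary gene 64.7 kb away, had a log2 difference of -0.62 (limma adjusted p = 0.317).

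*Gm11425* (ENSMUSG00000082419, chr11:83027500-83027997, minus strand), the *Rpl12*-like processed pseudogene of 498 bases, was at 1.48, 1.86 and 1.66 TPM in *Trp53fl/fl* tumors. It was listed at 0 in *VP* replicates 1 and 2, and stood at 0.32 TPM in replicate 3, a gap of 4.63 times. *Gm10275*, another *Rpl12* copy with 4 mismatches to *Gm11425*, was at 2162.47, 2141.84 and 2484.36 TPM against 2393.58, 2472.06 and 2622.84 TPM (log2 difference 0.14, limma adjusted p = 0.633). *Rpl12* was at 62.93, 52.40 and 58.94 TPM against 72.55, 69.00 and 67.82 TPM (log2 difference 0.26, limma adjusted p = 0.386). *Gm11425* was at 0.0653% to 0.0848% of both together in *Trp53fl/fl* tumors. Summing it with *Gm9396*, to which it is closest at 99.6% of bases, gave 1.48, 2.61 and 1.66 TPM against 0, 0 and 0.32 TPM, and the gap stayed at 4.63 times.

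*Gm11425* was the member whose surroundings held genes that passed adjustment. It lies on chromosome 11, 13.4 Mb from *Trp53*, among the Schlafen genes, which encode proteins linked to immune cell growth. Of 21 tested genes within 500 kb, 9 had an unadjusted limma p under 0.05, 5 of them higher in *VP* tumors, and 2 passed. Over all genes tested, 12.5% had an unadjusted limma p under 0.05 and 0.165% passed. Neighbouring genes are not independent of each other. *Slfn9*, 35.7 kb away, was at 5.47, 5.24 and 4.23 TPM in *Trp53fl/fl* tumors and 0.50, 0.49 and 1.20 TPM in *VP* tumors (log2 difference -1.81, SE 0.22, limma adjusted p = 0.0448). The *Slfn9* call was lost when any tumor but *VP* replicate 3 was left out, with adjusted p from 0.115 to 0.214. *AA465934*, 264 kb away, was at 2.60, 2.03 and 1.69 TPM against 22.48, 26.66 and 17.04 TPM (log2 difference 2.88, SE 0.20, limma adjusted p = 0.0067), and it passed with each tumor left out in turn (adjusted p 0.0133 to 0.0491). *Slfn8*, 6.69 kb away, was lower in *VP* tumors by a log2 difference of -0.58 (limma adjusted p = 0.377), whereas *Slfn1* had 0.90 (limma adjusted p = 0.114), *Slfn5* 1.12 (limma adjusted p = 0.278) and *Slfn2* 0.61 (limma adjusted p = 0.342). The members of this cluster thus had log2 differences of both signs.

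*Gm43980* (ENSMUSG00000107962, chr6:49254851-49256462, plus strand), the TEC gene of 1612 bases, was at 4.02, 5.11 and 3.31 TPM in *Trp53fl/fl* tumors (4.15 ± 0.907, SD, n = 3) and 1.63, 1.61 and 1.65 TPM in *VP* tumors (1.63 ± 0.02, SD, n = 3). Its gap of 2.01 times was just inside the limit, and it fell outside after either rescaling of the tumors. It lies in an intron of *Tra2a*, a splicing regulator, on the opposite strand. *Tra2a* was at 92.06, 118.60 and 61.62 TPM against 36.80, 54.90 and 61.92 TPM (log2 difference -0.80, SE 0.28, limma adjusted p = 0.341), with *Trp53fl/fl* replicate 3 and *VP* replicate 3 at nearly the same level. A stretch of 171 bases of *Gm43980* was identical to the reverse complement of part of *Ftx*, a noncoding RNA gene, and 1194 genes shared at least 1 word with it. *Gm31432* (ENSMUSG00000110767, chr9:46532757-46543376, plus strand), a lincRNA of 3 exons, was at 1.74, 1.30 and 3.08 TPM (2.04 ± 0.927, SD, n = 3) against 0.23, 0.45 and 0.53 TPM (0.403 ± 0.155, SD, n = 3), a gap of 2.45 times. It overlaps no gene and shares no 31-base word. None of the 3 tested genes within 500 kb had an unadjusted limma p under 0.05.

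Across members, the level was low. Of the 12, 9 stayed under 10 TPM in every tumor and 2, *Gm42428* and *Gm45665*, had 10 TPM or more in every tumor of the higher genotype. Their transcripts, of 302 and 168 bases, are about as long as or shorter than the cDNA fragments that the paper selected by size. What this does to a length-scaled level was not tested. In the lower genotype, 7 of the 12 were listed at 0 in at least 1 tumor and 3 in all. The highest *VP* tumor was replicate 1 for 5 of the 8 transcripts higher in *VP*, replicate 2 for 2 and replicate 3 for 1. Just outside the rule, *2610528A11Rik*, which encodes a ligand of the receptor GPR15, was at 135.27, 169.08 and 164.88 TPM against 479.88, 571.47 and 316.49 TPM, with a gap of 1.87 times, and *Gm16211* had a gap of 1.80 times. Just inside were *Gm43980* at 2.01 and *A530040E14Rik* at 2.12 times. At the limit of 1 TPM, *Gm6685* and *Gm5905* were outside with lowest *VP* tumors of 0.87 and 0.83 TPM, and *Gm7592* and *Gm48228* inside with 1.01 and 1.04 TPM.

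Genes beside the members were tested as well. The nearest tested gene on each side, or an overlapping one, gave 27 genes, of which 7 carry a Gm or Rik name and so were screened by the rule and failed it, and 20 were not. By limma, 0 of the 27 had an adjusted p under 0.05 and 8 (29.6%) an unadjusted p under 0.05, against 0.165% and 12.5% of all genes tested. The genotypes did not overlap for 11 of the 27 (40.7%), against 19.3% of all genes. Among the 20 that the rule did not screen, the counts were 8 (40%) and 11 (55%). The median log2 difference of the 27 was -0.08 and that of the 20 was -0.18, beside -0.07 for all genes. In 17 of the 27 pairs the neighbour had the sign of its member, and in 5 of the 8 with an unadjusted p under 0.05. Of 106 tested genes within 500 kb, 26 (24.5%) had an unadjusted p under 0.05 and 2 passed adjustment, *Slfn9* and *AA465934*. Without the 14 Gm and Rik rows among them, 25 of 92 (27.2%) had an unadjusted p under 0.05. Neighbours share chromosome domains and are not independent of each other. For the genes matched to the members by sequence, 14 were tested, 5 of them Gm or Rik rows that the rule had screened. Of the 14, 0 had a limma adjusted p under 0.05 and 5 (*Rpl12*, *Zfp125*, *Cttn*, *Ftx* and *Mlph*) an unadjusted p under 0.05. Not all are whole copies. *Ftx* matched 171 of the 1612 bases of *Gm43980*, *Mlph* aligned over 139 of the 168 bases of *Gm45665*, mostly CCT units, and *C130026I21Rik* overlaps its member.

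**Figure D4:**
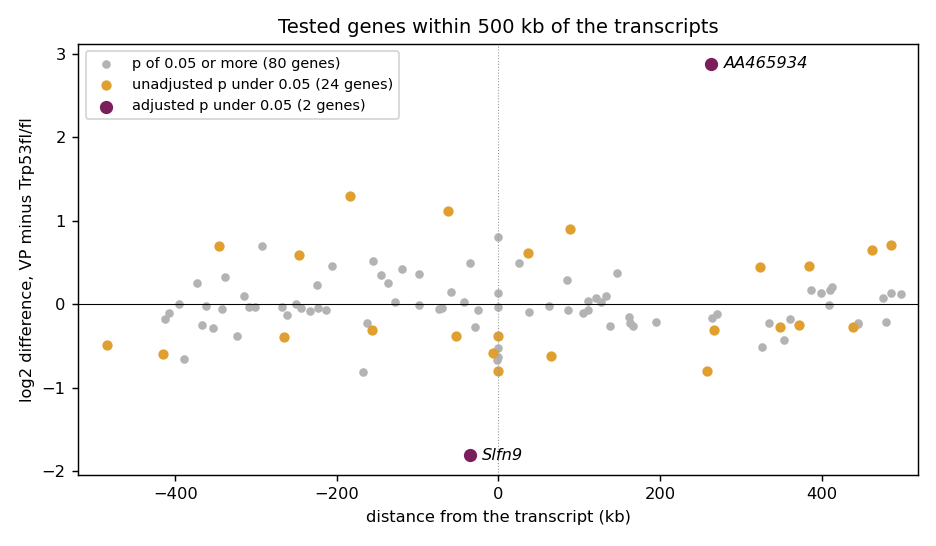
Log2 difference on the log2(TPM + 1) scale, *VP* minus *Trp53fl/fl* (y axis), of the 106 tested genes within 500 kb of a member against distance from it in kb (x axis). Most points lie within 1 of 0, and the labelled genes, *Slfn9* and *AA465934* near *Gm11425*, are the 2 with a limma adjusted p under 0.05.

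Named long noncoding RNAs gave a view of noncoding transcripts that the rule did not select. Of 45 listed, 43 were in the table and 32 were tested, of which 5 had a log2 difference above 0. Limma called 0 of them after adjustment, and 7 (21.9%, against 12.5% of all genes tested) had an unadjusted p under 0.05, all with log2 differences below 0. Their median log2 difference was -0.27 (-0.40 to -0.14 over the alternatives), beside -0.13 for the 1267 Gm and Rik genes tested and -0.07 for all genes. *Dleu2*, the host of the miR-15a/16-1 cluster, was at 8.79, 9.52 and 9.19 TPM against 2.78, 4.82 and 4.11 TPM (log2 difference -1.07, SE 0.19, limma adjusted p = 0.133). *Malat1*, a nuclear RNA tied to splicing, had -0.84 (limma adjusted p = 0.317), and *Snhg1*, *Snhg6* and *Snhg8*, hosts of small nucleolar RNAs, had -0.56, -0.49 and -0.37 (limma adjusted p = 0.331, 0.311 and 0.360). *Mir17hg*, the host of the miR-17-92 cluster, had -0.57 (limma adjusted p = 0.377), and *Ftx*, from the X inactivation centre, had -0.49 (limma adjusted p = 0.341). All 7 of these RNAs were highest in *Trp53fl/fl* replicate 2. For example, *Malat1* was at 51.95, 81.82 and 44.99 TPM against 40.78, 24.75 and 31.46 TPM. How far that tumor carries the differences was not tested. *Trp53cor1*, known as lincRNA-p21 and named here after its values were seen, was below the filter, at 0.26, 0.56 and 0 TPM against 0.05, 0.16 and 0.28 TPM.

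Cell composition was measured beside these results. Of 10 tested neutrophil markers all had a log2 difference above 0, with a median of 2.11 and a summed level of 368 to 701 TPM in *Trp53fl/fl* tumors and 1184 to 2011 TPM in *VP* tumors. Of these, 1 passed, the granule protein gene *Ngp* (0.81, 0.21 and 0.62 TPM against 48.44, 18.17 and 32.08 TPM, log2 difference 4.37, limma adjusted p = 0.00804), and 8 had an unadjusted p under 0.05, beside 12.5% of all genes tested. The other 7 of these, *S100a8*, *S100a9*, *Ltf*, *Camp*, *Cxcr2*, *Retnlg* and *Mmp8*, had log2 differences of 0.72 or more (limma adjusted p 0.0521 to 0.278), and the granule genes *Mpo* and *Elane* were near 0 in all tumors. The tested markers *Csf3r* and *Ly6g* overlapped between genotypes, with log2 differences of 0.07 and 0.21 (limma adjusted p = 0.933 and 0.806). All 4 tested erythroid markers were above 0 as well (*Hba-a1*, *Hbb-bs*, *Hbb-bt* and *Alas2*, median 1.59, summed level 165 to 484 TPM against 648 to 992 TPM), and none passed. The small intestine and Paneth cell list was lower in *VP* tumors by its median of -1.48, with sums of 2607 to 10824 TPM against 852 to 4098 TPM, which overlap. In that list the Paneth cell lysozyme gene *Lyz1* had a log2 difference of -1.59 (limma adjusted p = 0.362) and *Fabp6*, a bile acid binding protein gene of the ileum, had 1.22 (limma adjusted p = 0.293). The mast cell list had a median of -0.45, with sums of 109 to 431 TPM against 60.2 to 223 TPM. The 13 epithelial markers had a median of 0.10 and sums of 11381 to 11887 TPM against 12867 to 13925 TPM, and *Epcam* was between 1159 and 1526 TPM in all 6 tumors. In the other lists none passed, and *Gzma*, *Cd68*, *Krt19*, *Cldn7*, *Lgals4*, *Vwf* and *Fos* above 0 and *Lum* and *Pdgfra* below 0 had an unadjusted p under 0.05 (limma adjusted p 0.270 to 0.366). The part of these cells in the levels of the 12 transcripts was not tested, and in bulk tumors fewer cells of a type and less RNA per cell cannot be told apart.

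Promoter windows (250 bases before to 50 after the start, RefSeq, GRCm38.p6) were given for 2 of the 12 members. In the window of *A530040E14Rik* (chr1:85105843-85106142) an exact match to the 10-base unit of the p53 response element started at base 288, with 1 CpG in the window. Such a unit occurred in 8.36% of all 32851 windows. The windows of *Gm31432* (chr9:46389212-46389511 and chr9:46515824-46516123) held none, with 4 and 2 CpG. Both end before chr9:46532757, where GENCODE M21 starts *Gm31432*, so neither covers that start. No window of either member held a full p53 response element, which 1.09% of all windows held, or TATAAA on either strand, which 13.6% held. The median CpG count of all windows was 7. These are matches of letters and no binding was measured.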

How the data were processed

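Gene TPM from RNA-seq of 6 AOM/DSS colorectal tumors (3 *Trp53fl/fl*, 3 *VP*) were used. The authors selected poly(A) RNA, read paired ends and deposited unpooled gene TPM rounded to 2 decimals. The submitters' notes name HISAT2, StringTie and mm9, while the gene IDs are of a GRCm38 annotation, so coordinates and transcripts were taken by gene ID from GENCODE M21 (GRCm38), and the deposited table was not remapped. TPM depend on all other genes of a tumor and keep no depth, so no count test or counting error was possible, and a level under 1 TPM is weakly resolved. Members and lists were chosen with earlier results of these data known. The named genes are the members, those nearest to the thresholds, *Trp53*, neighbours, genes of similar sequence, and, from the lists, defining markers and genes with an unadjusted p under 0.05. Genes of similar sequence were found by matching transcripts with blastn 2.17.0, instead of by name as planned.

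Genes that reached 1 TPM in 3 tumors or more were tested with limma 3.58.1 in R 4.3.3 on log2(TPM + 1), with a pseudocount of 1, genotype as the term, empirical Bayes with trend, two-sided p and Benjamini-Hochberg adjustment. Fold changes are on that scale, which understates those of low genes. The limma and word-counting steps were tested on simulated data. Alternatives were another pseudocount, fold, floor, filter or scaling, the replicate number as a block, no trend, and each tumor left out. P-values set the genotype difference against the spread among tumors of a genotype, as estimated with empirical Bayes.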

Additional observations from a re-analysis of the deposited data

How the results depend on the processing

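The count of transcripts passing the rule moved with its limits. It was 27 (14 higher and 13 lower in *VP*, 2.56% of eligible Gm and Rik rows) with a fold of 1.5, 5 (3 and 2, 0.475%) with a fold of 3, 24 (16 and 8) with a floor of 0.5 TPM and 6 (4 and 2) with a floor of 2 TPM. With each tumor left out it was 27 to 34 (13 to 17 higher, 10 to 20 lower, 2.45% to 2.96%), and the 12 were kept each time, as fewer tumors make the rule easier to pass. Median-of-ratios rescaling or quantile normalization left 11, without *Gm43980*. The log2 differences of 10 of the 12 moved by over 1 SD with a pseudocount of 0.1, for example from 2.47 to 5.53 for *Gm29787*, 1.57 to 4.36 for *Gm43712* and -1.28 to -3.45 for *Gm11425*. Their signs are fixed by the choice of members. The members shared 25.3% of 75-base words at the median, a length added after the data were seen.

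The 25 genes called by limma became 7 with no filter and 10 with the replicate block, and 3 (without *Trp53fl/fl* replicate 1) to 23 with a tumor left out. The share of calls higher in *VP* was 48%, 60% after median-of-ratios rescaling and 70% with the replicate block. The 2 Gm and Rik genes called, *Gm29787* and *Gm45665*, are members chosen on these same values, so their calls are no support, and the count became 1 with no filter, 1 with a mean of at least 5 TPM, 1 with the replicate block, and between 0 and 2 when 1 tumor was omitted. The median log2 difference of all genes was -0.0235 with no filter, 0.00067 after median-of-ratios rescaling and -0.0161 after quantile normalization. *Trp53* kept its log2 difference of -1.87 but not its call with no filter (adjusted p = 0.104) and with the replicate block (adjusted p = 0.0883). With a tumor left out it ranged from -2.02 to -1.74, and the call was lost in 4 of 6 cases, without *Trp53fl/fl* replicates 1 and 3 and *VP* replicates 1 and 2 (adjusted p 0.0561 to 0.108). The median over all marker genes ranged from 0.0279 (without *VP* replicate 2) to 0.18 with a tumor left out. Counts for neighbours, similar genes and named noncoding RNAs stayed at 0, also within 100 kb (19 neighbours). *Slfn9* missed the threshold with a pseudocount of 0.1 (adjusted p = 0.0844), no filter, either rescaling and the replicate block (adjusted p = 0.180). Replicate numbers did not pair the tumors, with correlations of deviations of 0.0185, -0.05 and 0.0175 for numbers 1, 2 and 3, so the block results share only a number. The causes of these changes were not tested. Depth is unknown and limits the low levels most.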
